A study of Mus musculus with 4 samples.

Results

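The livers of trained mice injected with amyloid fibrils (FI) were compared with those of trained mice injected with vehicle (VI), in 1 pooled RNA-seq library per group. Of 35275 genes in the count table, the 9095 with at least 5 counts per 1000000 counts (CPM) in FI or VI were measured, and these genes are the members described here. The labels and the study's methods differ on the strain, which is AKR/J in the labels and R1.P1-Apoa2c, with a SAMR1 background, in the methods. Both groups were female mice of the Apoa2c congenic genotype, aged 26 weeks after 16 weeks of high-intensity interval treadmill training. FI mice received an intravenous injection of AApoAII fibrils at the start of training, and VI mice received phosphate-buffered saline. Liver tissue of 4 mice per group was pooled before RNA extraction, so the spread between mice was not measured. The comparison therefore has no replicate and no p-value, and the intervals given are exact conditional binomial (Clopper-Pearson) 95% intervals that cover counting error only. The other libraries of the series were the sedentary groups with vehicle (VS) and with fibrils (FS).

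In AApoAII amyloidosis, apolipoprotein A-II polymerizes into fibrils that are deposited between cells in many organs, and injected fibrils act as seeds for this process in mice that carry the amyloidogenic c allele of Apoa2. The liver makes the precursor protein together with most other plasma proteins. It responds to inflammatory cytokines by secreting acute phase proteins such as serum amyloid A (SAA). Secretory load is met in the endoplasmic reticulum (ER) by chaperones and folding enzymes, whose genes are induced by the unfolded protein response (UPR).

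The libraries held 24524287 counts in VI and 24801185 in FI, so that 3 counts, the floor used here, corresponded to 0.123 and 0.124 CPM. Albumin took 12.3% of the counts in VI and 13.2% in FI, and transcripts of the mitochondrial genome took 3.32% and 2.99%. The median count of a measured gene was 560 in VI and 565 in FI. The 12 hepatocyte markers were all above the filter in both libraries. Of 19 markers of T and NK cells, none reached 5 CPM in either library. Transcripts of stratified squamous epithelium were highest in the VI library. A list of 22 such genes, written after their values were seen, summed without Perp to 21.3 CPM in VI, 1.90 in FI, 0.974 in VS and 5.69 in FS, and 19 of the 22 were at 0 counts in FI. Skeletal muscle markers other than Eno3 and Neb summed to 11.3 CPM in VI and 0.992 in FI.

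The values of most genes were close in both livers. The median log2 ratio of FI over VI was 0.00, 91.5% of genes lay within 1.5-fold, and the 5th and 95th percentiles were −0.50 and 0.58. Beyond 2-fold were 206 genes (2.26%), of which 132 were higher in FI (1.45%) and 74 were lower (0.814%). The whole counting interval lay beyond 2-fold for 78 higher genes (0.858%) and 37 lower genes (0.407%). Beyond 1.5-fold were 455 higher genes (5%) and 314 lower genes (3.45%). Of all measured genes, 50.1% had a ratio above 0 and 49.9% a ratio below 0. The threshold fell between Nedd9 (log2 ratio 1.005) and Ctla2b (0.998) among higher genes, and between Rnf125 (−1.002) and Tbc1d30 (−0.999) among lower genes. Because the filter was met in either library, 45 of the 132 higher genes were below 5 CPM in VI and 31 of the 74 lower genes were below it in FI. The quartile of genes with the lowest mean CPM held 83 of the 206 genes beyond 2-fold, against 55 in the quartile with the highest.

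Acute phase genes were higher in FI almost throughout. Of 36 such genes listed, 31 were measured, 30 of them were higher in FI and 11 were beyond 2-fold, with none lower beyond 2-fold. Their median log2 ratio was 0.64, beside 0.00 over all measured genes. Saa2 and Saa1 encode the major inducible SAA proteins, which circulate on high-density lipoprotein and form the fibrils of another systemic amyloidosis. Saa2 (chr7:46751833-46754314, mm10, plus strand) had 51.1 CPM in VI and 1164 in FI, a log2 ratio of 4.51 (4.43 to 4.59). Saa1 (chr7:46740501-46742980, minus strand) had 155 CPM in VI and 1803 in FI, a log2 ratio of 3.54 (3.50 to 3.59). These neighbouring genes are near-identical copies, so how reads were divided between them is uncertain. Their sum, which does not depend on that division, was 206 CPM in VI and 2967 in FI, 14.4-fold higher (log2 ratio 3.85, 3.81 to 3.89).

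The Saa1 and Saa2 genes lie head to head, and their promoters are shown because they are alike over the whole window. The 250 bases before each start site (RefSeq, GRCm38.p6) matched at 238 of 251 aligned positions, or 94.8%. Capitals mark the positions that differ between the copies or face a gap.
Saa1, chr7:46742981-46743230, minus strand: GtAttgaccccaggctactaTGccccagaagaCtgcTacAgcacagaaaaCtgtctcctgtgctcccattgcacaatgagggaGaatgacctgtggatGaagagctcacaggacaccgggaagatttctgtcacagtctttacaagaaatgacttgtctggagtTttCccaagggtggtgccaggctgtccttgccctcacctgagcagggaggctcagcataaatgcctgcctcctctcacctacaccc
Saa2, chr7:46751583-46751832, plus strand: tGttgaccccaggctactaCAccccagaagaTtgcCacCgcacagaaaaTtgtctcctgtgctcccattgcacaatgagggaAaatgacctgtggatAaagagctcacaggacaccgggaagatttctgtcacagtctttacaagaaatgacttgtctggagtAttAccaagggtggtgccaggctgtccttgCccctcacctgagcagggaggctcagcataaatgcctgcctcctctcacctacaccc

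The other Saa genes at this locus were higher as well. Saa3, which is made mainly outside hepatocytes, had 7.63 CPM in VI and 35.6 in FI, a log2 ratio of 2.22 (1.99 to 2.46). Saa4, the constitutive form, had 352 and 935 CPM, a log2 ratio of 1.41 (1.37 to 1.45). All 4 measured Saa genes were therefore beyond 2-fold.

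Lcn2, which encodes the iron-siderophore binding protein lipocalin 2, had 36.5 CPM in VI and 549 in FI, a log2 ratio of 3.91 (3.81 to 4.01). Further acute phase genes beyond 2-fold were Orm2 (36.1 and 97.4 CPM, log2 ratio 1.43), Lrg1 (435 and 1036 CPM, 1.25), the metalloreductase gene Steap4 (55.0 and 172 CPM, 1.65) and the protease inhibitor gene Serpina3n (1219 and 2640 CPM, 1.12). The interleukin 1 receptor antagonist gene Il1rn (7.55 and 32.6 CPM, 2.11) and the lipopolysaccharide co-receptor gene Cd14 (5.34 and 23.4 CPM, 2.13) were also beyond 2-fold. Other plasma protein genes were higher by less than 2-fold. Haptoglobin (Hp) had 4386 CPM in VI and 8022 in FI, a log2 ratio of 0.87 (0.86 to 0.88). The fibrinogen chains Fga, Fgb and Fgg had log2 ratios of 0.62, 0.50 and 0.61. The heme carrier hemopexin (Hpx) had 0.52, and C3, the central complement component, had 0.24. The measured member below 0 was Apoh, at −0.05.

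Genes of the Serpina1 and Serpina3 clusters, which encode circulating protease inhibitors, were higher for 8 of 8 measured members, with a median of 0.45 and Serpina3n alone beyond 2-fold. Reads of these paralogs cannot be assigned with certainty. Genes of plasma proteins known to be lowered in inflammation were divided, 6 higher and 10 lower of 16, with a median of −0.08 and none beyond 2-fold. Higher members included Apoa4 (log2 ratio 0.50), Serpina7 (0.48) and albumin (Alb, 0.13). The cortisol-binding globulin gene Serpina6 had 735 CPM in VI and 469 in FI (log2 ratio −0.65), transthyretin (Ttr) had 6052 and 4857 CPM (−0.32), and Apoa2, the amyloid precursor gene, had 6584 and 5627 CPM (−0.23, −0.24 to −0.22). Complement genes as a whole had a median of 0.02 (17 higher and 14 lower of 31, none beyond 2-fold), and coagulation genes 0.05 (16 higher and 11 lower of 27). The thrombomodulin gene Thbd was beyond 2-fold in the coagulation list, at 2.22 and 8.72 CPM (1.97).

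Upstream of these genes, the list of interleukin 6, STAT3, NF-kB and C/EBP signalling had 22 of 29 members higher, 3 beyond 2-fold and none lower beyond 2-fold, with a median of 0.22. Among receptors, the tumour necrosis factor receptor gene Tnfrsf1b had 35.3 CPM in VI and 79.3 in FI (1.17), and Il6ra had 83.9 and 115 CPM (0.46). Among transcription factors, Cebpd had 11.9 and 26.8 CPM (1.17) and Stat3 had 135 and 184 CPM (0.44). Among feedback inhibitors, Tnfaip3 had 2.09 and 5.66 CPM (1.43), Socs3 had 12.2 and 15.3 CPM (0.33), and the growth hormone inhibitors Socs2 and Cish were lower (−0.80 and −0.91). The STAT element TTCNNNGAA stood in the 250-base promoter window of 7 of the 24 acute phase genes that had a window (29.2%), against 6.96% of the 7287 measured genes with a window. The comparison of these shares is void, because fewer than 80% of the 31 measured acute phase genes had a window. The genes with the element were Agt, Apcs, Fga, Fgb, Hamp, Itih4 and Steap4.

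**Figure D1:**
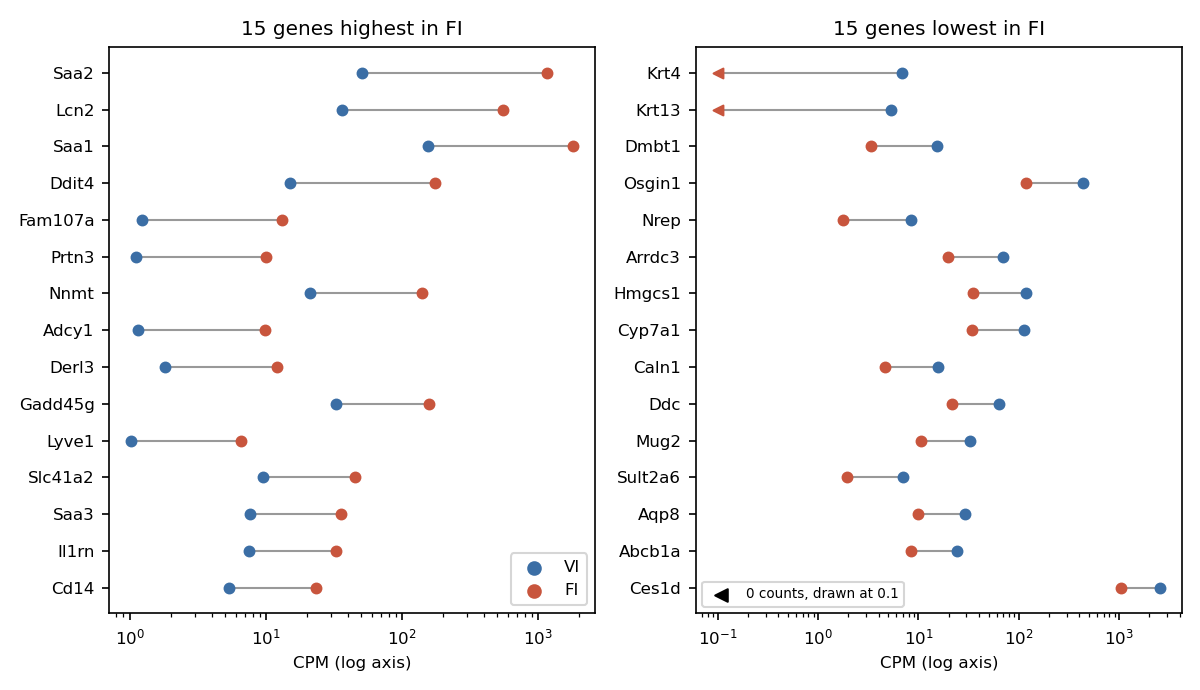
CPM (log axis) in VI (blue) and FI (red) of the 15 genes highest and the 15 genes lowest in FI, ranked by the bound of the counting interval nearer to 0. Saa2 had 51.1 and 1164 CPM, and triangles mark Krt4 and Krt13 at 0 counts in FI, drawn at 0.1.

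Genes of the secretory pathway were higher mainly among ER chaperones. Of 34 measured genes for ER chaperones and folding enzymes, 28 were higher in FI, 6 were beyond 2-fold and none was lower beyond 2-fold, with a median of 0.32. The 21 chaperones and co-chaperones had a median of 0.64 and the 13 disulfide isomerases and oxidases 0.16. Sdf2l1, a component of the ER chaperone complex, had 11.4 CPM in VI and 42.0 in FI, a log2 ratio of 1.88 (1.69 to 2.08). Creld2 (chr15:88819646-88826681, plus strand), an ER stress-inducible protein with isomerase activity, had 31.5 and 110 CPM, a log2 ratio of 1.81 (1.69 to 1.93). The remaining members beyond 2-fold were Fkbp11 (4.68 and 12 CPM, 1.36), Hyou1 (79.7 and 182 CPM, 1.19), the secreted factor gene Manf (54.0 and 110 CPM, 1.03) and Pdia4 (97.1 and 197 CPM, 1.02). The counting intervals of Manf (0.93 to 1.12) and Pdia4 (0.95 to 1.09) reached below 2-fold.

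Further chaperones lay just under 2-fold. Hspa5 (BiP, chr2:34771970-34776531, plus strand), the master ER chaperone, had 430 CPM in VI and 823 in FI, a log2 ratio of 0.94 (0.90 to 0.97). Hsp90b1 (GRP94) had 254 and 485 CPM (0.93), calreticulin (Calr) 316 and 586 CPM (0.89), and Pdia6 166 and 327 CPM (0.98). Dnajb9, an ER co-chaperone gene induced by the IRE1 and XBP1 arm, had 57.3 and 56.0 CPM, and its interval of −0.14 to 0.07 held 0.

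Genes of ER-associated degradation, which returns misfolded proteins to the cytosol, were closer to 0, with 16 higher and 7 lower of 23 and a median of 0.10. Derl3 (chr10:75893398-75895941, plus strand), a retrotranslocation factor, was beyond 2-fold with 1.81 CPM in VI and 12 in FI, a log2 ratio of 2.72 (2.27 to 3.22). The ubiquitin ligase gene Syvn1 had 54.3 and 96.0 CPM (0.82), whereas Herpud1 had 749 and 785 CPM (0.07). The translocon and N-glycosylation list had 30 of 37 members higher and none beyond 2-fold, with a median of 0.14. UPR sensors and transcription factors had 9 of 10 members higher, none beyond 2-fold and a median of 0.24, among them Xbp1 (140 and 199 CPM, 0.50), Atf6 (58.1 and 72.0 CPM, 0.31), Ern1 (0.26) and Eif2ak3, which encodes PERK (0.17, −0.02 to 0.37).

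Several of these ER genes shared a promoter sequence. The ER stress element, CCAAT and CCACG separated by 9 bases on either strand, is the sequence bound by ATF6 with NF-Y. It stood in the 250-base window of 14 of the 7287 measured genes with a window (0.192%). Of these 14 genes, 8 belonged to the ER chaperone list, where 28 of 34 members had a window (28.6%), and Derl3 and Syvn1 belonged to the degradation list. In FI, 11 of the 14 were higher, with a median log2 ratio of 0.73, beside 50.3% higher and a median of 0.00 over the 7287 genes. These values are not separate from those of the ER lists described above, to which most of the 14 genes belong. The members of the ER chaperone list with the element were Creld2, Pdia6, Hspa5, Hsp90b1, Calr, Dnajc3, Ero1lb and Canx. Outside both lists it stood at Acacb (0.57), Hnrnpa3 (−0.04), Pan2 (−0.13) and Acnat2 (−0.14). A match of letters is a description and not a measured binding site. The windows of 4 ER genes are shown with the element in capitals (RefSeq, GRCm38.p6), in which Hsp90b1 had 2 matches. The RefSeq start of Hspa5 lies inside the gene span given above, so its window overlaps that span, and the marked element lies in the overlap.
Derl3, chr10:75893148-75893397, plus strand: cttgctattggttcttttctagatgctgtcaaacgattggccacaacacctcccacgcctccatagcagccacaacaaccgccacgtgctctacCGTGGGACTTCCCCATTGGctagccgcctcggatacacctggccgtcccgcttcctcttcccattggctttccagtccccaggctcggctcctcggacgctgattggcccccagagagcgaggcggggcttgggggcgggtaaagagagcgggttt
Creld2, chr15:88819396-88819645, plus strand: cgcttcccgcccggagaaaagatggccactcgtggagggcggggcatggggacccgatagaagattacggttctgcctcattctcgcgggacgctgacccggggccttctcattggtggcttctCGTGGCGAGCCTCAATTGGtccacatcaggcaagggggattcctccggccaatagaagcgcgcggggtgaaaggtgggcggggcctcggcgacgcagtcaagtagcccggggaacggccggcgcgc
Hspa5, chr2:34771840-34772089, plus strand: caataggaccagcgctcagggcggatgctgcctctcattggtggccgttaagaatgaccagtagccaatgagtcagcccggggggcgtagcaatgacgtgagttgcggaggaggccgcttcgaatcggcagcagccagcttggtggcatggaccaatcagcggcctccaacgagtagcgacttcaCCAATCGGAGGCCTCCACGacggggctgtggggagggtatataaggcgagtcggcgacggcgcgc
Hsp90b1, chr10:86705445-86705694, minus strand: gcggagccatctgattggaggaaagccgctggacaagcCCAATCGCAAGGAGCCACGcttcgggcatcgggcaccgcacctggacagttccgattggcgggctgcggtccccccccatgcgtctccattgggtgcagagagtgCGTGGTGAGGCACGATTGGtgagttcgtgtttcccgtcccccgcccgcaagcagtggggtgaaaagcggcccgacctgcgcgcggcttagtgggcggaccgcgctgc

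**Figure D2:**
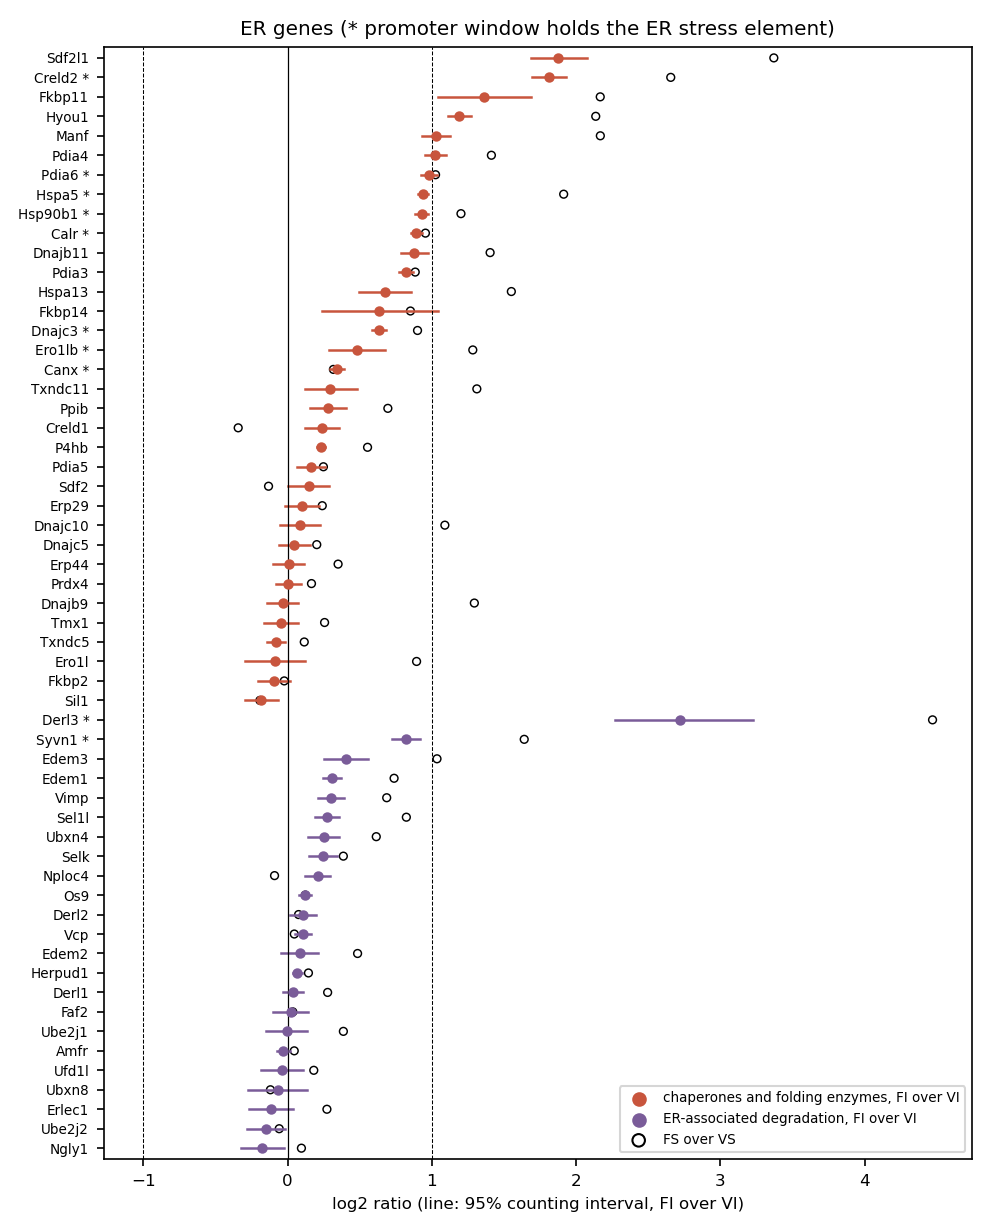
Log2 ratio of FI over VI with its 95% counting interval (filled points and lines) for ER chaperones and folding enzymes (red) and ER-associated degradation (purple), with the ratio of FS over VS as open circles, and a star beside the 10 genes whose promoter window holds the ER stress element. Derl3, Sdf2l1 and Creld2 stand highest in FI over VI at 2.72, 1.88 and 1.81.

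The integrated stress response, which acts through ATF4, differed from this. Of 33 measured genes, 21 were higher and 12 lower, with a median of 0.06, 1 gene higher beyond 2-fold and 1 lower. The higher gene was Ddit4 (REDD1, an inhibitor of mTORC1), with 15.1 CPM in VI and 175 in FI, a log2 ratio of 3.53 (3.38 to 3.69). The lower gene was Fgf21, a liver hormone of fasting, with 6.36 and 2.11 CPM (−1.58, −2.08 to −1.13). Atf4 itself had 124 and 101 CPM (−0.29), Ddit3 (CHOP) 7.39 and 6.49 CPM with an interval of −0.51 to 0.13, and 15 tRNA synthetase genes had a median of 0.02. Below 2-fold, the amino acid transporter gene Slc38a2 had 184 and 334 CPM (0.86, 0.81 to 0.91), and Chac1 (0.89) and Trib3 (0.85) were higher at levels under 10 CPM.

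Cytosolic and mitochondrial chaperones were divided, with 15 higher and 11 lower of 26, a median of 0.03, 3 higher beyond 2-fold and 1 lower. The small heat shock protein gene Hspb1 (HSP25 in mice, chr5:135887919-135889563, plus strand) had 163 counts in VI and 536 in FI, or 6.69 and 22.2 CPM, a log2 ratio of 1.72 (1.47 to 1.99). Hsp90aa1, the inducible cytosolic HSP90, had 77.7 and 174 CPM (1.16, 1.09 to 1.24), and the co-chaperone gene Fkbp5, which is also a glucocorticoid target, had 151 and 368 CPM (1.28). Hspa1b, the inducible HSP70, was lower, with 17.9 and 7.73 CPM (−1.21, −1.47 to −0.96), as were the constitutive HSP70 gene Hspa8 (−0.27) and Dnajb1 (−0.40). Hspa1b has a near-identical neighbour, and its value is uncertain for that reason.

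Among stress kinases and checkpoint genes, the p38 MAPK list had 12 of 14 members higher, with a median of 0.12. Both members beyond 2-fold were phosphatases that switch MAPK off, Dusp1 (32.6 and 91.1 CPM, 1.48) and Dusp8 (1.97 and 5.42 CPM, 1.45). The gene of p38α itself, Mapk14, had 88.4 and 77.8 CPM (−0.18, −0.27 to −0.09), the upstream kinase gene Map2k6 22.6 and 41.5 CPM (0.88), and Map3k5 (ASK1) 57.3 and 92.2 CPM (0.68). RNA levels do not report kinase activity. Genes of the p53 pathway and the Gadd45 family had 15 of 19 members higher and a median of 0.15, with 3 beyond 2-fold. These were Gadd45g (32.8 and 159 CPM, 2.27, 2.16 to 2.38), the antiproliferative gene Btg2 (13.5 and 33.6 CPM, 1.32) and Trp53inp1 (114 and 235 CPM, 1.04). The cell cycle inhibitor gene Cdkn1a (p21) had 35.4 and 56.1 CPM (0.66), and Trp53 had 15.8 and 16.0 CPM. Immediate early genes had 11 of 14 members higher with a median of 0.47, Fos being at 1.23 and 5.83 CPM (2.22, 1.67 to 2.86).

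Glucocorticoid receptor targets had the highest median of any list with at least 5 measured members, 0.73, with 13 of 15 higher and 6 beyond 2-fold. Lcn2, Dusp1 and Fkbp5 of this list are described above. Tat, the tyrosine aminotransferase that is a classic hormone-induced liver enzyme, had 2018 CPM in VI and 5278 in FI, a log2 ratio of 1.39 (1.37 to 1.40). Igfbp1, a secreted carrier of insulin-like growth factors, had 533 and 1396 CPM (1.39, 1.36 to 1.42), and the kinase gene Sgk1 had 27.8 and 67.3 CPM (1.27). Below 2-fold, Tsc22d3 (GILZ) had 123 and 200 CPM (0.70) and the metallothionein genes Mt2 and Mt1 had ratios of 0.90 and 0.79. The receptor gene Nr3c1 had 81.5 and 75 CPM (−0.12).

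**Figure D3:**
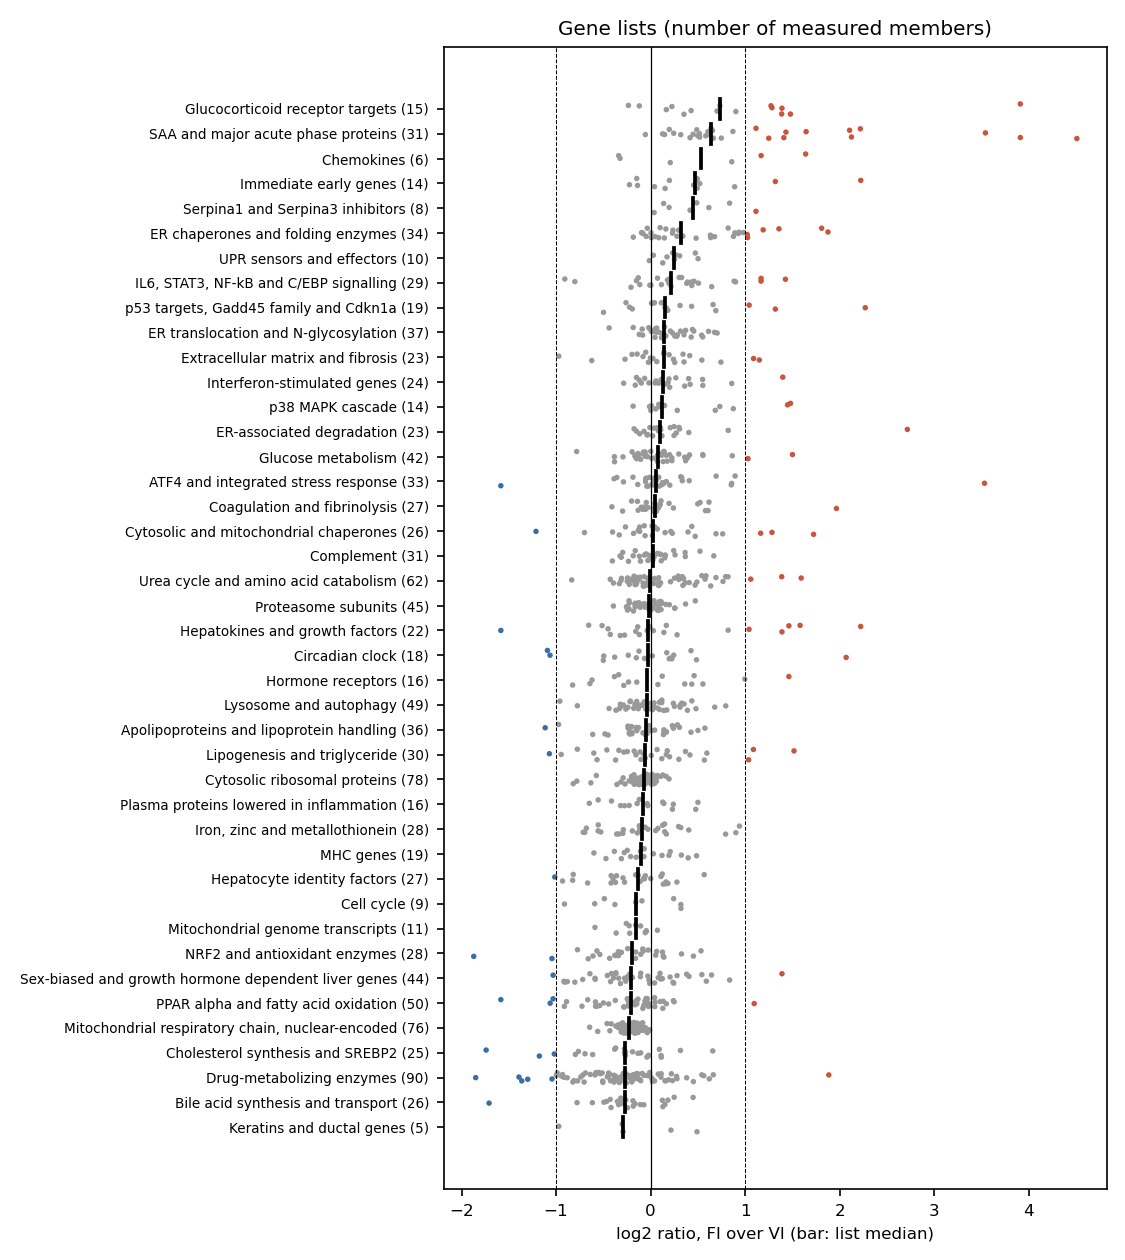
Log2 ratio of FI over VI of every measured member (points) in each gene list with at least 5 measured members, with the list median as a black bar and the number of measured members in brackets. Red and blue points lie beyond 2-fold (dashed lines). The medians run from 0.73 for glucocorticoid receptor targets to −0.29 for keratins and ductal genes.

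Gluconeogenic and amino acid catabolic enzymes near Tat in function were higher in part. G6pc, the final enzyme of glucose release, had 381 and 694 CPM (0.86), and Pck1 had 4271 and 5252 CPM (0.30). The glucose metabolism list as a whole had a median of 0.07 (25 higher and 17 lower of 42), with the glycolytic regulator gene Pfkfb3 (6.28 and 17.8 CPM, 1.5) and the glycogen-targeting gene Ppp1r3g (62.8 and 128 CPM, 1.03) beyond 2-fold. Of 62 genes for the urea cycle and amino acid catabolism, 30 were higher and 32 lower, with a median of −0.01. The 3 genes beyond 2-fold were all higher, namely Tat, the aspartate aminotransferase gene Got1 (454 and 946 CPM, 1.06) and Acmsd of the tryptophan pathway (12.3 and 37.1 CPM, 1.59).

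Sterol and bile acid genes were lower. In the cholesterol synthesis list, 20 of 25 members were lower in FI and 3 were lower beyond 2-fold, with none higher beyond 2-fold and a median of −0.27. Hmgcs1, which makes the HMG-CoA for sterol synthesis, had 117 CPM in VI and 35.0 in FI, a log2 ratio of −1.74 (−1.85 to −1.63). Sc5d, a late enzyme of the pathway, had 78.0 and 38.5 CPM (−1.02). Insig2, which retains the sterol sensor in the ER, was higher at 142 and 224 CPM (0.66). In bile acid metabolism 20 of 26 genes were lower, with a median of −0.27. Cyp7a1, the rate-limiting enzyme of bile acid synthesis, had 112 CPM in VI and 34.1 in FI, a log2 ratio of −1.71 (−1.82 to −1.60). The sterol 12α-hydroxylase gene Cyp8b1 had 303 and 177 CPM (−0.78), the sterol exporter gene Abcg5 173 and 113 CPM (−0.62), and Cyp27a1 of the alternative pathway 421 and 371 CPM (−0.18).

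Drug-metabolizing enzymes were lower for 69 of 90 measured genes, with a median of −0.27, 5 lower beyond 2-fold and 1 higher. The transferases had 29 of 35 genes lower (median −0.37) and the cytochromes P450 of families 1 to 3 had 24 of 35 lower (median −0.18). The carboxylesterase gene Ces1d had 2544 CPM in VI and 1034 in FI (−1.30, −1.32 to −1.28), and its relative Ces1g had 67.3 and 25.6 CPM (−1.39). The sulfotransferase genes Sult2a6 (7.06 and 1.94 CPM, −1.85) and Sult2a5 (20.2 and 7.85 CPM, −1.36) and the glutathione transferase gene Gsta2 (31.3 and 15.2 CPM, −1.04) completed the lower group. Cyp2b10 ran the other way, with 31.5 and 116 CPM (1.89, 1.77 to 2.0), while Nr1i3, the CAR receptor known to drive it, had 169 and 88.8 CPM (−0.93). These gene families contain close paralogs whose reads may be shared.

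The NRF2 and antioxidant list had 20 of 28 genes lower, with a median of −0.20 and 2 lower beyond 2-fold. Osgin1, an oxidative stress-induced growth inhibitor, had 436 CPM in VI and 119 in FI, a log2 ratio of −1.87 (−1.93 to −1.81). The subunits of glutamate-cysteine ligase, which starts glutathione synthesis, were lower together, Gclc at 348 and 235 CPM (−0.57) and Gclm at 272 and 172 CPM (−0.66). Hmox1 had 30.2 and 31.4 CPM.

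Fatty acid oxidation and PPARα targets were lower for 40 of 50 genes, with a median of −0.20. Beyond 2-fold were the peroxisomal thiolase gene Acaa1b (1949 and 933 CPM, −1.06), the thioesterase gene Acot3 (131 and 64.3 CPM, −1.03) and Fgf21 on the lower side, and Txnip (183 and 392 CPM, 1.10) on the higher side. Cpt1a (0.10) and Cyp4a14 (0.04) stayed near 0. In lipogenesis and triglyceride handling, 14 genes were higher and 16 lower of 30. The phosphatidate phosphatase gene Lpin1 had 241 and 690 CPM (1.52), the lipid droplet gene Plin5 117 and 249 CPM (1.09) and Thrsp 71.8 and 147 CPM (1.04). The lipase inhibitor gene G0s2 had 35.1 and 16.7 CPM (−1.07), Scd1, the stearoyl-CoA desaturase, 1981 and 1029 CPM (−0.95), and Srebf1 174 and 102 CPM (−0.78).

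All 76 measured nuclear genes of the mitochondrial respiratory chain had a ratio below 0, and the interval of 68 lay wholly below it, but the shift was small. Their median was −0.23, within a range of −0.64 (Ndufb8, 55.5 and 35.5 CPM) to −0.01 (Ndufc1). Gene length moved with the ratio in these libraries. The shortest quartile of measured genes, 2274 genes of at most 2017 bases, had a median of −0.09 with 63.5% lower in FI, and the longest quartile a median of 0.07 with 39.1% lower. Of the 76 genes, 63 belonged to the shortest quartile, where their median was −0.23, and the 13 longer members were all lower with a median of −0.19. Cytosolic ribosomal protein genes, of which 68 of 78 belonged to the shortest quartile, had a median of −0.07 with 61 lower. In FS over VS, the same shortest and longest quartiles had medians of −0.09 and 0.10, and the respiratory chain list had −0.30. The part of length in these shifts was not tested. Of 11 mitochondrial genome transcripts, 10 were lower, with a median of −0.16. Proteasome subunits had a median of −0.01 (21 higher and 24 lower of 45) and lysosome and autophagy genes −0.04 (24 higher and 25 lower of 49), with none beyond 2-fold in either list.

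Markers of Kupffer cells, the resident macrophages of the liver, were higher for 15 of 16 measured genes, with a median of 0.37 and Cd163 beyond 2-fold. Cd163, a scavenger receptor for hemoglobin, had 14.2 CPM in VI and 32.3 in FI (1.18, 1.0 to 1.37). The complement genes C1qa, C1qb and C1qc, which macrophages make in the liver, had ratios of 0.52, 0.67 and 0.37. The Kupffer cell genes Clec4f (109 and 136 CPM, 0.32) and Cd5l (74.9 and 75.5 CPM, 0.01) were closer to 0. The lower marker was the iron exporter gene Slc40a1, with a log2 ratio of −0.68. In bulk tissue, more cells of a type and more RNA per cell cannot be told apart. The summed level of the 17 listed markers was 676 CPM in VI and 734 in FI. Summed neutrophil markers rested on Lcn2 and Prtn3 (1.11 and 10.1 CPM, 3.16), since the other 15 summed to 4.19 CPM in VI and 5.46 in FI, with 7 and 5 of them at 0 counts. Markers of sinusoidal endothelium summed to 405 and 427 CPM, with 8 higher and 6 lower of 14 measured and a median of 0.10. Lyve1 alone was beyond 2-fold, at 1.03 and 6.57 CPM (2.66, 2.06 to 3.35), and rested on 25 counts in VI. Markers of B and plasma cells summed to 314 and 340 CPM, and 4 of 4 measured genes were higher. The immunoglobulin gene Igha alone was beyond 2-fold, at 4.97 and 13.8 CPM (1.47).

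Other genes with high ratios belonged to none of these groups. Nnmt, which methylates nicotinamide, had 20.9 CPM in VI and 140 in FI (2.74, 2.61 to 2.88), and the magnesium transporter gene Slc41a2 had 9.48 and 44.9 CPM (2.24). Fam107a (1.23 and 13.1 CPM, 3.39) and the adenylyl cyclase gene Adcy1 (1.15 and 9.88 CPM, 3.08) rested on 30 and 28 counts in VI. On the lower side, the arrestin domain gene Arrdc3 had 69.7 and 19.7 CPM (−1.82), the decarboxylase gene Ddc 63.2 and 21.4 CPM (−1.56), the water channel gene Aqp8 29.3 and 9.84 CPM (−1.57), the multidrug transporter gene Abcb1a 24.3 and 8.43 CPM (−1.52) and the protease inhibitor gene Mug2 32.8 and 10.7 CPM (−1.61). Dmbt1 (15.4 and 3.35 CPM, −2.20), Nrep (8.50 and 1.78 CPM, −2.24) and Caln1 (15.7 and 4.59 CPM, −1.77) were lower as well. Krt4 (165 counts in VI, at least 54.6-fold lower in FI) and Krt13 (130 counts in VI, at least 43-fold lower), keratins of stratified epithelium, were at 0 counts in FI, VS and FS, so these counts were in the VI library alone. Leaving out the squamous and muscle genes gave 132 higher and 72 lower genes. Ranked among named genes by the difference in CPM, which is not corrected for gene length, the 10 largest differences toward FI were those of Alb, Hp, Tat, Fga, Hpx, Fgb, Fgg, Mat1a, Apoa1 and C3. The 10 largest toward VI were those of Apoe, Ftl1, Ces1d, mt-Co1, Cyp3a11, Ttr, Acaa1b, Apoa2, Scd1 and Cyp2e1, of which Ftl1, the ferritin light chain, had 5779 and 4013 CPM (−0.53).

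The sedentary pair, FS over VS, shares no library with FI over VI and is set beside it here without a test. It had 207 genes higher (2.26%) and 127 lower (1.39%) beyond 2-fold among 9155 measured. Of the 132 genes higher in FI over VI, 126 were above 0 in FS over VS (95.5%, against 51.4% of all measured genes) and 73 were above 2-fold (55.3%, against 2.20%). Of the 74 lower genes, 68 were below 0 (91.9%, against 48.6%) and 30 were lower beyond 2-fold (40.5%, against 1.13%). Saa1 and Saa2 summed to 39.9 CPM in VS and 1468 in FS. The medians were 0.64 in the trained pair and 1.11 in the sedentary pair for acute phase genes, 0.32 and 0.90 for ER chaperones, −0.20 and −0.71 for PPARα targets, and 0.03 and −0.45 for cytosolic chaperones. For cholesterol synthesis they were −0.27 and −0.05, and for glucocorticoid targets 0.73 and 0.79. Cyp7a1 had 114 CPM in VS and 107 in FS, Hmgcs1 115 and 98.3 CPM, Ddc 24.8 and 24.2 CPM, and Aqp8 36.2 and 39.8 CPM. These 4 genes were thus lower beyond 2-fold in the trained pair while their sedentary libraries lay within 1.5-fold of each other. For Cyp7a1, Hmgcs1 and Aqp8 the FI library was below all others. For Ddc the VI library stood apart at 63.2 CPM, while FI, at 21.4 CPM, lay near the sedentary libraries. Skeletal muscle markers other than Eno3 and Neb summed to 84.7 CPM in VS and 1.19 in FS, and all 17 markers to 99.4 and 14.5 CPM, and their part in the sedentary values was not tested.

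**Figure D4:**
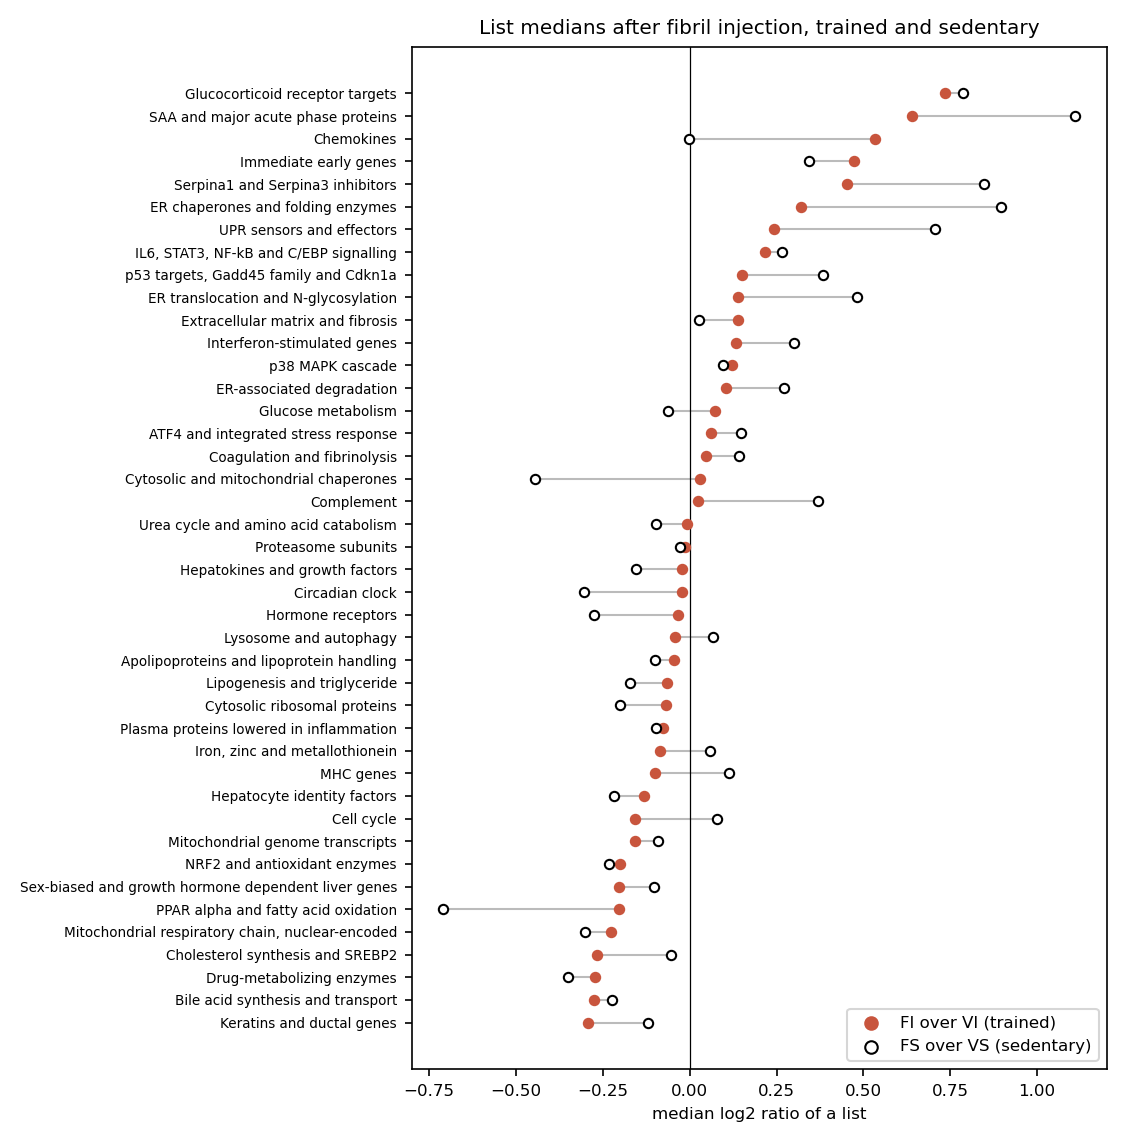
Median log2 ratio of each gene list with at least 5 measured members in FI over VI (filled) and FS over VS (open), ordered by the trained median. Acute phase genes stand at 0.64 and 1.11, ER chaperones at 0.32 and 0.90, and cytosolic chaperones at 0.03 and −0.45.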

How the data were processed

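Total RNA from pooled livers was sequenced as 4 libraries, of which FI and VI are compared here. Per the submitters' processing notes, fastp 0.23.2, STAR 2.5 and HTSeq 0.6.1 were used with the mm10 build; their roles and the annotation and strand settings were not stated in the labels or methods. The authors deposited whole read counts per gene, without normalization, and FPKM values, which equal counts divided by gene length and library total. Counts were scaled by TMM over the 4 libraries (edgeR 4.0.16, R 4.3.3) to CPM. Genes with at least 5 CPM in FI or VI were kept, and log2 ratios used a prior of 0.5 counts. Clopper-Pearson 95% intervals (scipy 1.17.1) cover counting error only. The method was run on simulated counts that held counting error alone, as the intervals assume. That run could not check variation between mice or pools. A ratio against 0 counts is given as a bound at 3 counts. With 1 library per group there was no test, and a list is described by its counts and median. Genes were counted by Ensembl identifier, and 52 symbols occurred more than once. List and marker members were found by symbol, and the first entry of a repeated symbol was taken. Promoter windows were matched by Ensembl identifier, or by symbol or synonym where that failed.

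The members, the 43 gene lists and the 13 marker lists (1561 genes, 9 not found in the table) were chosen with earlier results of these data known. Named genes are the 15 highest and 15 lowest by the interval bound nearer to 0, passing over 3 and 2 predicted or unnamed genes, the 10 largest differences in CPM in each direction, and the key and up to 4 most changed members of each list. The squamous epithelium list, and genes named beyond this rule, were chosen after their values were seen. Some members of the lists are not reported here by name. Promoter windows of 250 bases came from RefSeq (GRCm38.p6) and matched 7287 of the 9095 measured genes. The 8 motifs were searched on both strands, and the share of all 7287 windows that held each follows its name. They were the ER stress element (0.192%), the ATF4 element TGATGNAA (2.40%), the STAT element TTCNNNGAA (6.96%), the E-box CACGTG (10.6%), the glucocorticoid element with GNACA and TGTNC separated by 3 bases (0.302%), the heat shock element with GAA, TTC and GAA separated by 2 bases each (0.508%), the NF-kB element (0.178%) and the sterol element (0.178%). Among list members with a window, the sterol element stood in 0 of 18 cholesterol synthesis genes. The glucocorticoid element stood in 1 of 12 glucocorticoid targets and the heat shock element in 2 of 21 cytosolic and mitochondrial chaperones. The ATF4 element stood in 6 of 25 genes of the ATF4 list, and the NF-kB element in 0 of 24 acute phase genes. No comparison was drawn from these counts. DESeq2 1.42.0 gave alternative size factors.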

Additional observations from a re-analysis of the deposited data

Results flagged for a closer look

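Hspb1 was the gene that lay beyond 2-fold in opposite directions in the trained and the sedentary pair. It was higher in FI than in VI (log2 ratio 1.72, 163 and 536 counts) and lower in FS than in VS (−1.51, 324 and 142 counts), where it had 13.7 CPM in VS and 4.81 in FS. With 1 library per group, the difference between the pairs was not tested. Skeletal muscle markers other than Eno3 and Neb summed to 84.7 CPM in VS, 1.19 in FS, 11.3 in VI and 0.992 in FI. Their part in the Hspb1 values was not tested. By quantitative PCR in individual mice, the study reported Hspb1 RNA higher in VI and in FS than in VS, and higher still in FI. In these pooled libraries VI (6.69 CPM) and FS were both below VS, the opposite direction. FI, at 22.2 CPM, was the highest group here, as it was by quantitative PCR. From its RNA-seq, the study also reported Hspb1 higher in FI than in FS, the same direction as here.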

How the results depend on the processing

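The other ways of scaling (TMM over FI and VI only, DESeq2 size factors, total counts and upper quartile) gave 124 to 131 higher and 73 to 85 lower genes beyond 2-fold, against 132 and 74. The median ratio of all genes moved by at most 0.03. The counts depended on the filter, the fold threshold and the pseudocount. A filter of 1 CPM gave 296 higher and 200 lower genes (496 in all), no filter gave 2056 and 2141 (4197 in all), and a filter of 10 CPM gave 95 and 47. A threshold of 1.5-fold gave 455 and 314 (769 in all), and requiring the whole counting interval beyond 2-fold gave 78 and 37 (115 in all). The deposited FPKM with a pseudocount of 1 gave 75 and 47 (122 in all), and with 0.1 gave 114 and 77. Of the 30 highest and lowest genes, 29 stayed beyond 2-fold with the pseudocount of 1 (Adcy1 did not), and all 30 under the other scalings, the pseudocount of 0.1 and a prior of 2 counts. Of 83 named genes beyond 2-fold, 14 fell inside it with the FPKM pseudocount of 1, and Manf also did so with 0.1 and under upper quartile scaling. Of the list medians, that of complement changed sign under total counts, upper quartile and FPKM. Those of lipogenesis, urea cycle, hepatokines and hormone receptors did so when the mean was used, and that of the circadian clock with the filter of 10 CPM. Leaving out the shortest quartile of genes, an alternative added after seeing the data, changed the sign for lipogenesis, proteasome, urea cycle and hepatokines. No named gene beyond 2-fold changed direction under any setting. No paired analysis was possible because each group is 1 pooled library, and no library could be left out.

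A difference between 2 pools of 4 mice holds the variation among mice, the handling of the pools and the treatment together, and these cannot be told apart. Counting error limits low genes, since the median interval of all genes was 0.34 wide on the log2 scale.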

Other observations

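Genes of the circadian clock were divided, 9 higher and 9 lower of 18. Ciart, a repressor within the clock, had 5.99 CPM in VI and 25.2 in FI (log2 ratio 2.07, 1.81 to 2.34). Nfil3 had 37.3 and 17.8 CPM (−1.06), while Nr1d1 (7.10 and 7.19 CPM), Per2 (−0.15) and Dbp (0.20) were closer to 0. The times at which the livers were taken are not given in the labels.

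Hepatokines and growth factors were divided, 10 higher and 12 lower of 22 with a median of −0.02, as were hormone receptors, 8 higher and 8 lower of 16 with a median of −0.03. Beyond 2-fold were 5 higher hepatokine genes and 1 lower one, Fgf21. Inhbb, an activin subunit, had 2.46 and 11.6 CPM (2.22) and the activin-binding gene Fst 5.95 and 17.9 CPM (1.58). In the hormone receptor list, the leptin receptor gene Lepr alone was beyond 2-fold, at 46.9 and 129 CPM (1.46). The receptor gene Egfr had 114 and 234 CPM (1.04). The growth hormone receptor gene Ghr was lower at 392 and 251 CPM (−0.64), as were Socs2 and Cish. Among chemokines, Ccl6 had 9.40 and 29.3 CPM (1.64) and Cxcl1 10.4 and 23.5 CPM (1.17). Interferon-stimulated genes had a median of 0.13 (17 higher and 7 lower of 24, with Usp18 beyond 2-fold at 1.40) and MHC genes −0.10 (7 higher and 12 lower of 19). Extracellular matrix genes had a median of 0.14 (14 higher and 9 lower of 23), with Col4a2 (5.09 and 11.3 CPM, 1.15) and Ctgf (4.19 and 8.93 CPM, 1.09) beyond 2-fold. In iron and zinc handling, the zinc importer gene Slc39a14 had 181 and 348 CPM (0.94), hepcidin (Hamp) 1261 and 1397 CPM (0.15), and the iron exporter gene Slc40a1 214 and 134 CPM (−0.68). Among hepatocyte transcription factors, 18 of 27 were lower, with Tbx3 beyond 2-fold (18.9 and 9.34 CPM, −1.01), Foxa2 at 36.5 and 20.7 CPM (−0.82) and Hnf4a at 836 and 1014 CPM (0.28).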
